A study of Mus musculus with 32 samples.

Results

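The nucleosome remodelling and deacetylase (NuRD) complex was examined through the transcripts of 10 of its subunits, chosen by name: the ATPases Chd4, Chd3 and Chd5, the methyl-CpG-binding-domain proteins Mbd2 and Mbd3, the metastasis-associated proteins Mta1, Mta2 and Mta3, and the deacetylases Hdac1 and Hdac2. All 10 were listed in each of the 5 expression tables, which name 17440 genes between them, and all 10 passed the filter on low values in each table. Transcripts were measured by RNA sequencing of polyadenylated RNA from E14 cells, a line of mouse embryonic stem cells. Each of 16 groups had 2 libraries, so every mean ± SD has n = 2, and nothing in the labels says that the libraries of a group came from separate cultures. The p-values therefore measure the spread between these libraries, which may be technical.

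In all of them either CTCF or RAD21 bore a degron tag (AID), so that adding an auxin marks that protein for breakdown by the proteasome. CTCF binds DNA and stops the loop-extruding cohesin ring, of which RAD21 is a subunit. CTCF AID cells were left without indole-3-acetic acid (IAA) or given 500 µM IAA for 12 or 24 h, and RAD21 AID cells were left untreated or given 1 µM of the IAA analogue 5-Ph-IAA for the same times. A second pair of CTCF AID groups, 0 and 12 h of IAA, is labelled as a serum condition, although the growth protocol given for all samples is a serum-free medium with leukaemia inhibitory factor and inhibitors of MEK and GSK3. In the hairpin table, CTCF AID cells carried a hairpin against Chd4 or a control hairpin, with no IAA named in their labels. In the overexpression table, CTCF AID cells carried a control, wild-type CTCF or mutated CTCF, each with and without IAA. Nothing in the labels gives the CTCF mutation, the cell clone, or the promoter or vector of the transgenes and hairpins. Titles and treatment labels conflict for 4 of the overexpression libraries (mutated CTCF titled without IAA but labelled as treated for 12 h, wild-type CTCF titled with IAA but labelled as untreated), and the titles were followed.

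NuRD joins 2 enzymatic activities in one complex. Chd4, or its paralogue Chd3 or Chd5, slides nucleosomes with energy from ATP, while Hdac1 and Hdac2 remove acetyl groups from histones. The Mta proteins form the scaffold that holds the deacetylases and the histone-binding proteins Rbbp4 and Rbbp7. Mbd2 and Mbd3 occupy the same place in mutually exclusive forms of the complex, and Gatad2a or Gatad2b links them to the ATPase. In embryonic stem cells NuRD is known for limiting the expression of pluripotency genes and for allowing exit from self-renewal, and Mbd3 is its best-studied subunit there.

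RefSeq start sites on GRCm38.p6 were matched for 6 of the 10 subunits, in 8 windows (Chd4 and Chd5 with 2 each, and Mbd3, Mta1, Mta2 and Hdac2). The 250 bases upstream of the start are shown for an ATPase, a scaffold and a deacetylase whose transcripts moved with the Chd4 hairpin, with each GC box (GGGCGG on either strand) in capitals. They lie at chr6:125095731-125095980 (Chd4, first of its 2 starts), chr12:113098028-113098277 (Mta1) and chr10:36974294-36974543 (Hdac2), all on the plus strand.
Chd4: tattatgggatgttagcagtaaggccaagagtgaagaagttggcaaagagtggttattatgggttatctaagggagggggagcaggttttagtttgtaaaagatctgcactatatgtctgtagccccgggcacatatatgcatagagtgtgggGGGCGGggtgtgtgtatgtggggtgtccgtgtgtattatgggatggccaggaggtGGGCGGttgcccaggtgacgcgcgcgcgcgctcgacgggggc
Mta1: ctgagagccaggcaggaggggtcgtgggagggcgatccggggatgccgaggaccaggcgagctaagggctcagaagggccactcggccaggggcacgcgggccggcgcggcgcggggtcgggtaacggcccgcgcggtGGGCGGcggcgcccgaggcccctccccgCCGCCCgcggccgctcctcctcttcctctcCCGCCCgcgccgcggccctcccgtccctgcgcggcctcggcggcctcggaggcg
Hdac2: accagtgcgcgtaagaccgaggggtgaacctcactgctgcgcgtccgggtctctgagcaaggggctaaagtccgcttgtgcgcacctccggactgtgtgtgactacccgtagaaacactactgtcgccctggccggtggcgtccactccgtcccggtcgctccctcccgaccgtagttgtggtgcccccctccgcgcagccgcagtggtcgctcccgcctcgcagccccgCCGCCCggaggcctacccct

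The 3 windows held 2, 3 and 1 GC boxes and 12, 39 and 27 CpG pairs in the order printed, where the median over all 32851 RefSeq windows of the same length was 6 CpG pairs. A GC box was found in 8 of the 8 subunit windows and in 32.7% of all windows. The 2 windows of Chd4 overlap each other, as do those of Chd5, so the 8 windows cover 6 genes and share bases. The core of the motif that CTCF binds, searched on both strands as a pattern with 8 fixed letters, was found in 0 of the 8 and in 2.07% of all windows. CACGTG was found in 0 of the 8 and in 6.02% of all windows, and CCAAT, likewise on both strands, in the second Chd4 window and that of Mbd3, against 33.85% of all. The spelled motifs share no run of 4 letters, and a match or its absence describes these windows only.

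The values are the authors' normalised counts, here also divided by the exonic length of the gene (all exons of GENCODE M21 merged, per kb) where genes are compared with each other. With the control hairpin, Hdac1 stood highest at 1332 ± 21.2 normalised counts per kb, followed by Chd4 at 1213 ± 35, Mta1 at 866 ± 23.1, Mta2 at 788 ± 2.24, Mbd3 at 625 ± 31.1 and Hdac2 at 588 ± 11.3. Mta3 at 181 ± 3.81 and Mbd2 at 160 ± 26.6 came next and their libraries overlapped, ahead of Chd3 at 76.7 ± 6.88 and Chd5 at 30.2 ± 2.94. Within the paralogue groups, Chd4 stood far above Chd3 and Chd5, Mbd3 above Mbd2, Hdac1 above Hdac2, and Mta1 and Mta2 above Mta3. In the untreated CTCF AID, serum, RAD21 AID and overexpression control groups the last 4 places were also taken by Mta3, Mbd2, Chd3 and Chd5, in that order, and Chd4 or Hdac1 was first. Outside the hairpin table, Chd4 made up between 90.0% and 97.2% of the summed per-kb level of Chd3, Chd4 and Chd5 in 28 libraries, and Mbd2 stood at 0.0762 to 0.281 of the Mbd3 level per kb over all 32 libraries.

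Reads of some subunits could be shared with other genes. Of the 31-base words in Hdac1 transcripts, 40.02% also occur in transcripts of other genes, most of them in Gm10093 (1218 of the 1400 shared words) and some in Gm4864, so the Hdac1 value is less certain than the others, for which the share was 0.83% or less. Chd3 and Chd4 shared 8 such words. Exons of Chd5 overlap 101 bases of Gm13645 on the opposite strand, and whether strand was used in counting is not given in the sources used here. Gene positions in the GENCODE M21 annotation of GRCm38 are chromosome 6, 125095981 to 125130591 for Chd4 (ENSMUSG00000063870.12), chromosome 11, 69343273 to 69369406 for Chd3, chromosome 12, 113098278 to 113137206 for Mta1, chromosome 4, 129516104 to 129542713 for Hdac1 and chromosome 10, 36974544 to 37001889 for Hdac2.

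The stem cell label was checked against 8 marker genes, all of which were listed in every table. Their summed level was 57280 to 68030 normalised counts in the serum table and 77462 to 127610 in the other tables. Library totals of the deposited values were 15364584 to 19642332. Where a tissue marker or a subunit is lower in these bulk libraries, fewer cells expressing it and less RNA per cell cannot be told apart. The targeted genes were read first: In CTCF AID cells Ctcf transcripts were higher at 12 h (4148 and 3881 against 3300 and 3253, limma adjusted p 0.00834), and Rad21 transcripts did not pass after 12 h of 5-Ph-IAA (4076 and 4194 against 4418 and 4259, 0.265). A degron acts on protein and not on RNA. The depletion itself is therefore not visible in these tables.

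Hairpin libraries were set against each other to ask how partners and paralogues respond when Chd4 is reduced. Chd4 fell to 36.5% of the control while its paralogue Chd3 rose 3.53-fold and Chd5 1.70-fold, Mta1 fell to 46.1% of the control, and Hdac1 and Hdac2 moved in opposite directions. In all, 4 of the 10 subunits were higher and 4 lower at a limma adjusted p under 0.05 (Benjamini-Hochberg over all genes tested), where 67.4% of the 15499 genes tested passed in this comparison (33.5% higher and 33.8% lower). The share of subunits called was thus near that of all genes. Their median log2 difference was -0.15 against 0.0062 over all genes, and their median absolute difference 0.41 against 0.57. These counts and medians include Chd4, the target of the hairpin, whose call is a check and not a response.

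**Figure D1:**
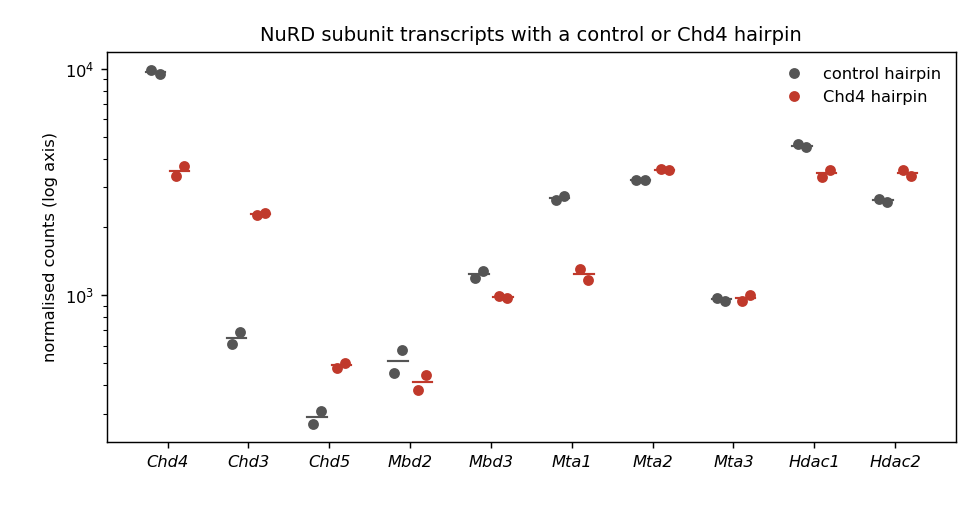
Normalised counts (log axis) of the 10 subunits in the 2 control hairpin libraries (grey) and the 2 Chd4 hairpin libraries (red), with horizontal lines at the group means. Chd4 and Mta1 lie lower with the Chd4 hairpin and Chd3 higher, with no overlap, while Mta3 overlaps between the groups.

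Among the ATPases, Chd4 stood at 9923 and 9526 under the control hairpin and at 3379 and 3729 with the Chd4 hairpin (log2 difference on the log2(value + 1) scale -1.45, SE 0.058, limma adjusted p 4.95e-06). Chd3, an ATPase that can take the place of Chd4 in the complex, stood at 607 and 689 under the control hairpin and at 2256 and 2312 with the Chd4 hairpin (log2 difference 1.82, SE 0.076, limma adjusted p 5.50e-06). Chd5, best known from neurons and testis, stood at 269 and 309 against 480 and 504 (log2 difference 0.77, SE 0.11, limma adjusted p 7.10e-04). For all 3 ATPases the groups did not overlap, and the 2 Chd3 values with the Chd4 hairpin lay above all 30 other libraries of the series, where Chd3 ranged from 248 to 830. Per kb of exon, Chd3 rose from 0.0581 and 0.0687 of the Chd4 level to 0.634 and 0.589 of it. The summed level of the 3 ATPases per kb was 1337 and 1302 with the control hairpin and 739 and 791 with the Chd4 hairpin, so it was still lower. Within that sum the share of Chd4 went from 92.5% and 91.3% to 57.0% and 58.8%.

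Of the scaffold proteins, Mta1 stood at 2639 and 2740 under the control hairpin and at 1313 and 1172 with the Chd4 hairpin (log2 difference -1.12, SE 0.069, limma adjusted p 2.07e-05). Mta2 was slightly higher, at 3613 and 3572 against 3219 and 3232 (log2 difference 0.16, SE 0.044, limma adjusted p 0.0174). Mta3 stood at 946 and 1000 against 977 and 948 and did not pass the test (log2 difference 0.02, 95% interval -0.14 to 0.17). Mta1 was thus the only 1 of the 3 scaffolds that fell, and its share of their summed per-kb level went from 46.7% and 47.7% to 28.5% and 26.3%. The Mta2 call was lost without control library 1 or control library 2 (limma adjusted p 0.0986 and 0.0889).

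The deacetylases went in opposite directions. Hdac1 stood at 4641 and 4538 under the control hairpin and at 3347 and 3567 with the Chd4 hairpin (log2 difference -0.41, SE 0.050, limma adjusted p 3.94e-04). Hdac2 stood at 2666 and 2594 under the control hairpin and at 3576 and 3383 with the Chd4 hairpin (log2 difference 0.40, SE 0.051, limma adjusted p 4.61e-04). Neither pair of groups overlapped, and the ratio of Hdac2 to Hdac1 per kb went from 0.442 and 0.440 to 0.823 and 0.730. Their summed per-kb level moved less, from 1943 and 1897 to 1771 and 1792. Gm4864, which shares sequence with Hdac1, was also lower, at 295 and 323 against 485 and 510 (log2 difference -0.69, limma adjusted p 7.79e-04). How far shared reads enter the Hdac1 value was not tested.

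Of the methyl-CpG-binding-domain subunits, Mbd3 fell and Mbd2 did not pass the test. Mbd3 stood at 998 and 978 against 1198 and 1286 (log2 difference -0.33, SE 0.066, limma adjusted p 0.00380), and its adjusted p was 0.0504 without Chd4 hairpin library 2. Mbd2, which unlike Mbd3 binds methylated CpG strongly, stood at 381 and 445 against 453 and 574 (log2 difference -0.31, SE 0.14, limma adjusted p 0.0858, and 0.0108 without control library 1). The ratio of Mbd2 to Mbd3 per kb overlapped between the groups, at 0.236 and 0.281 against 0.234 and 0.276.

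**Figure D2:**
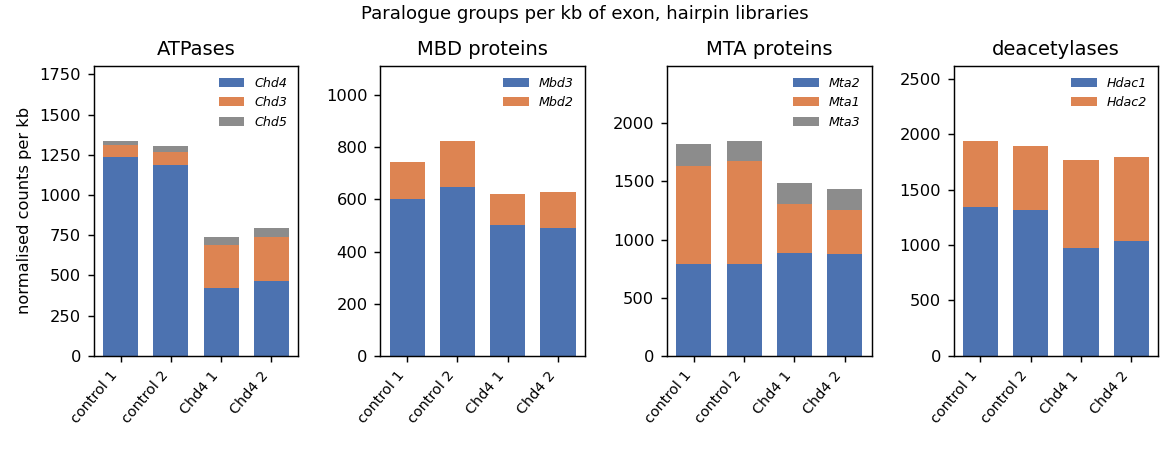
Normalised counts per kb of exon in the 4 hairpin libraries, stacked within the ATPases, the MBD proteins, the MTA proteins and the deacetylases. The ATPase stack drops to 739 and 791 with the Chd4 hairpin and holds a larger Chd3 part, and the Mta1 part of its stack shrinks.

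The 5 other core subunits moved less. Gatad2a, which bridges the MBD protein and Chd4, was higher (2931 and 3364 against 2487 and 2551, log2 difference 0.32, limma adjusted p 0.00653). The histone-binding proteins Rbbp4 (log2 difference -0.22) and Rbbp7 (-0.18) were lower with limma adjusted p 0.00595 and 0.00632. Gatad2b (-0.13) and Cdk2ap1 (0.04) did not pass the test. No core subunit outside the ATPases and Mta1 thus differed by as much as 0.5 on the log2 scale.

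Genes around the complex were read from lists of its stem cell partners and of related families. Of 12 partner genes tested, 4 were higher and 4 lower. The zinc finger gene Bcl11b stood at 77.2 and 58.7 against 9.58 and 7.27 in the control, so that it passed the filter on low values (a table mean of 10) through the Chd4 hairpin libraries, and its difference is a description. Pwwp2b rose by 1.99 on the log2 scale, and the transcription factors Sall1 (-1.20) and Sall4 (-0.40), which recruit NuRD, fell most. Of 7 other chromodomain helicases 1 rose (Chd9, 0.78) and 1 fell (Chd1, -0.55). Chd3 and Chd5 rose, while 5 of the 7 other chromodomain helicases did not pass the test. Of 9 other remodeller ATPases, 5 rose, most of all Smarca1 (151 and 146 to 830 and 774, log2 difference 2.42) and Smarca2 (1.77), and 3 fell, most of all Smarca4 (-0.56) and Atrx (-0.49). Smarca2 and Smarca4 are the alternative ATPases of the BAF complex.

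Of 9 other histone deacetylases, 6 fell and 1 rose. Hdac7 fell by 2.71 and Hdac10 by 2.64 on the log2 scale, and Hdac9 rose by 2.08. Of 7 other genes of the methyl-CpG-binding family and related readers, 5 fell and 0 rose, led by Uhrf1 (11585 and 11696 to 4116 and 4178, log2 difference -1.49), which maintains DNA methylation at replication, and Mbd6 (-0.84). Of 15 genes of the Sin3 and CoREST complexes, which also contain Hdac1 and Hdac2, 2 rose (Brms1, 0.73, and Dnttip1, 0.49) and 5 fell, most of all Rcor3 (-1.49) and Rcor2 (-0.69). All of these calls stand beside the 67.4% of genes called.

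Cell type markers were read beside these, in a comparison where 67.4% of all genes were called (33.5% higher and 33.8% lower). Of 8 stem cell markers 6 were lower and 0 higher, and their sum went from 123240 to 124940 in the control to 77462 to 78745. All 4 trophoblast markers tested were higher (summed level 414 to 455 against 1498 to 1639, with Cdx2 and Elf5 not listed in the table). Of 5 primitive endoderm markers 3 were higher and 2 lower (99.8 to 117 against 323 to 352, Foxa2 not listed). Of 5 neural markers 2 were higher and 2 lower (3185 to 3241 against 4107 to 4174), of 3 mesoderm markers 1 was higher (78.4 to 95.3 against 134 to 165), and both fibroblast markers tested were higher (239 to 316 against 559 to 628, with Col3a1, Dcn and Lum not listed). Neurog2, Mesp1, Tbx6 and Hand1 were not listed either. Of these markers Gata3 and Sox7 were under 10 in both control libraries, and Gata4 and Sox17 in both Chd4 hairpin libraries, so they passed the filter through the other group. No listed marker was at 0 in both libraries of a hairpin group. The part of such cells in the subunit differences was not tested.

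In the other 4 tables none of the called subunit differences reached 1 on the log2 scale.

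**Figure D3:**
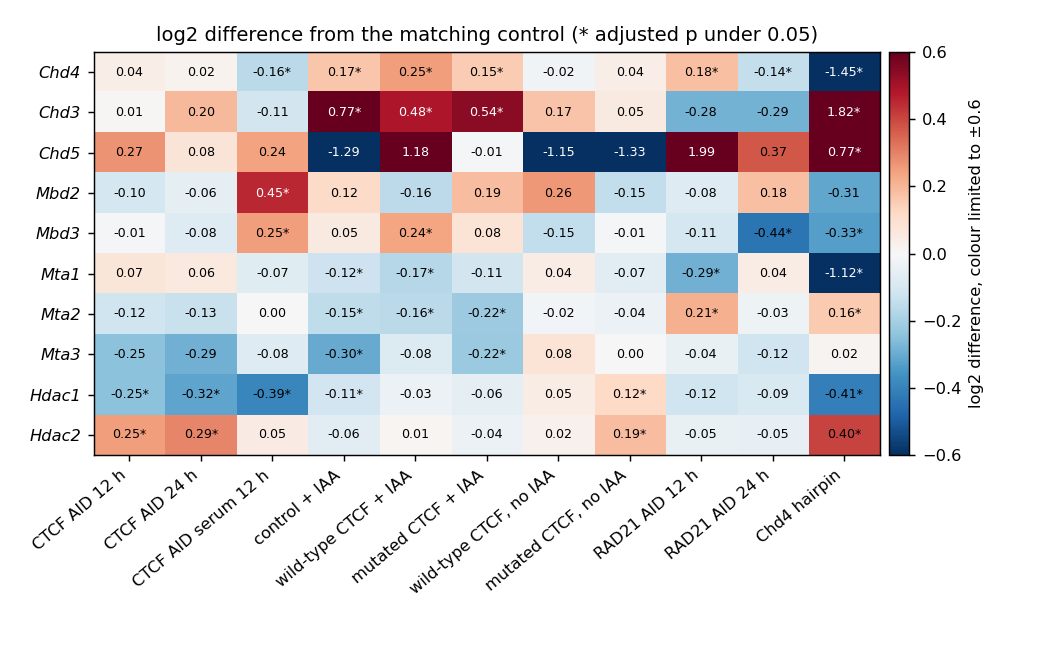
Log2 difference of each subunit (rows) from its matching control group in 11 comparisons (columns), with asterisks at a limma adjusted p under 0.05 and colours limited to 0.6 in either direction. The Chd4 hairpin column holds 8 asterisks, and the Hdac1 row is negative with an asterisk in the CTCF AID columns for 12 h, 24 h and serum (-0.25, -0.32 and -0.39).

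After CTCF was degraded in the serum-free table, Hdac1 fell and Hdac2 rose, and no other subunit of the 10 passed the test. At 12 h 1 subunit was higher and 1 lower, where 17.8% of 13699 genes were called (9.39% higher, 8.40% lower), and at 24 h again 1 and 1, where 22.5% were called (11.7% higher, 10.8% lower). The share of subunits called was thus near that of all genes at both times. Hdac1 stood at 4452 and 4360 without IAA, 3761 and 3667 at 12 h and 3560 and 3516 at 24 h (log2 difference -0.25, limma adjusted p 0.00771, and -0.32, 0.00229). Hdac2 stood at 3339 and 3543, 4160 and 4018, and 4129 and 4297 (0.25, 0.0146, and 0.29, 0.00665). Every treated library lay below both controls for Hdac1 and above both for Hdac2, and the ratio of Hdac2 to Hdac1 per kb went from 0.578 and 0.626 to 0.893 and 0.941 at 24 h. Gm4864 was lower at 24 h as well (93.0 and 90.7 against 132 and 157, log2 difference -0.64, limma adjusted p 0.0390). These 2 comparisons share their control libraries.

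The ATPases passed in neither comparison, with log2 differences between 0.01 and 0.27. Chd4 stood at 11513 and 10901 without IAA and at 11681 and 11378 at 12 h (log2 difference 0.04, 95% interval -0.08 to 0.16), and its 24 h libraries at 10847 and 11878 enclosed both controls. Mta3 was lower without passing, at 903 and 1014 after 24 h against 1128 and 1207 (log2 difference -0.29, limma adjusted p 0.0526). It passed without 24 h library 2 (limma adjusted p 0.0442) and after rescaling by the upper quartile (0.0314). Mbd2, Mbd3, Mta1 and Mta2 differed from the control by at most 0.13 in either direction. Between 12 h and 24 h, 0 of the 10 subunits passed with limma and 0 had an unadjusted p under 0.05, and 0.146% of all genes were called.

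In the serum-free table the largest movement in the complex after CTCF loss was in a subunit outside the 10. Rbbp7 rose from 5075 and 5029 to 6854 and 6811 at 12 h and 6933 and 7068 at 24 h (log2 difference 0.44 and 0.47, limma adjusted p 4.05e-04 and 2.38e-04), while its paralogue Rbbp4 did not pass (-0.04 and -0.10). Gatad2b was higher at 12 h (0.19, limma adjusted p 0.0443) and stood at 0.08 at 24 h (0.296), and Cdk2ap1 lower at 24 h (-0.30, 0.0212). Beside these counts, 17.8% of all genes were called at 12 h and 22.5% at 24 h. Of 11 partner genes 4 rose and 1 fell at each time. Kdm1a, a histone demethylase found with NuRD in stem cells, fell by 0.23 and 0.31, and Zfp296 rose by 0.38 and 0.55. Of 7 other chromodomain helicases 4 rose and 1 fell at 12 h: Chd1l went from 576 and 653 to 295 and 297 (log2 difference -1.05, limma adjusted p 0.00129), and Chd9 rose by 0.47 and Chd8 by 0.43.

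Both 24 h calls held without any 1 of the 4 libraries (limma adjusted p 0.00912 to 0.0243 for Hdac1 and 0.0163 to 0.0476 for Hdac2). The 12 h call of Hdac1 was lost without 0 h library 1 or 12 h library 2 (limma adjusted p 0.0617 and 0.0604), and that of Hdac2 without 0 h library 1, 12 h library 1 or 12 h library 2 (0.0595 to 0.0971). When the variance was not allowed to depend on the mean level, 0 subunits passed at 12 h and 1, Hdac1, at 24 h.

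Cell type markers also moved with CTCF loss, where 17.8% of all genes were called at 12 h and 22.5% at 24 h. Of 8 stem cell markers 2 were higher and 2 lower at 12 h, and 2 higher and 3 lower at 24 h (summed level 96794 to 97063 without IAA, 94741 to 94959 at 12 h and 92365 to 93140 at 24 h). Of 3 mesoderm markers tested 1 was higher at both times, T, which was under 10 in both libraries without IAA and so passed the filter through the treated libraries (summed level of the list 86.9 to 92.7, 135 to 197 and 243 to 250, with Mesp1, Tbx6 and Hand1 not listed). Of 4 neural markers 1 was higher at 12 h, and 1 was higher and 1 lower at 24 h (2000 to 2068, 2527 to 2657 and 2027 to 2323, with Pax6 and Neurog2 not listed). Of the primitive endoderm, trophoblast and fibroblast markers 0 were called with limma at either time, with 2, 3 and 2 tested (summed level 62.3 to 76.9, 346 to 360 and 34.8 to 35.5 without IAA, and 75.5 to 88.8, 243 to 281 and 36.4 to 36.8 at 24 h). The part of such cells in the Hdac1 and Hdac2 differences was not tested.

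In the serum condition, 12 h of IAA lowered Hdac1 and Chd4 and raised Mbd2 and Mbd3, 4 of the 10 subunits, where 17.0% of 14494 genes were called (7.73% higher, 9.25% lower). Hdac1 stood at 4394 and 4391 without IAA and at 3356 and 3334 with it (log2 difference -0.39, SE 0.029, limma adjusted p 2.41e-04). Chd4 stood at 14895 and 14914 against 13353 and 13311 with IAA (-0.16, SE 0.017, 0.00105). Mbd2 was at 196 and 221 without IAA and at 274 and 295 with it (0.45, SE 0.11, 0.0343), and Mbd3 at 1586 and 1692 against 1868 and 2039 with IAA (0.25, SE 0.058, 0.0257). The groups did not overlap for these 4 subunits. Hdac2, at 2883 and 2862 without and 2924 and 3017 with IAA, did not pass (0.05, 95% interval -0.03 to 0.13).

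In the same table Chd5 stood at 317 to 404 in the 4 libraries, Gatad2b was lower (-0.27, limma adjusted p 0.00481) and Rbbp7 did not pass (-0.08). Kdm1a and Chd1l were lower here too (-0.45 and -0.48). The Mbd2 call was lost without 0 h library 1, 12 h library 1 or 12 h library 2 (limma adjusted p 0.113 to 0.188), and the Mbd3 call without the same libraries (0.0558 to 0.161). With a variance that does not depend on the mean, 0 of the 10 subunits passed. Of 8 stem cell markers 6 were also lower (summed level 67832 to 68030 without and 57280 to 58213 with IAA), while 1 of 4 primitive endoderm markers (126 to 132 and 166 to 171) and 1 of 4 mesoderm markers (68.1 to 86.6 and 169 to 179) were higher. Among all genes 7.73% were higher and 9.25% lower. Trophoblast markers summed to 761 to 788 without and 930 to 949 with IAA. Neural markers summed to 2660 to 2700 and 2683 to 2707, and fibroblast markers to 618 to 655 and 675 to 702. The part of these markers in the subunit differences was not tested.

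After RAD21 loss the subunits called were Chd4, Mta1 and Mta2 at 12 h and Chd4 and Mbd3 at 24 h. At 12 h Chd4 and Mta2 were higher and Mta1 lower, 3 of the 10 subunits, where 13.0% of 13738 genes were called (6.66% higher, 6.35% lower). At 24 h Mbd3 and Chd4 were lower, 2 of the 10, where 13.7% were called (6.54% higher, 7.16% lower). Chd4 stood at 10425 and 10926 without 5-Ph-IAA, 12209 and 12008 at 12 h and 9942 and 9380 at 24 h (log2 difference 0.18, limma adjusted p 0.0220, and -0.14, 0.0419). Mbd3 stood at 1581 and 1627, 1510 and 1471, and 1224 and 1144 (-0.11, 0.271, and -0.44, 0.00534). Thus Chd4 lay above the controls at 12 h and below them at 24 h, whereas both time points lay below the controls for Mbd3.

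The scaffolds Mta1 and Mta2 moved in opposite directions at 12 h and did not pass against the controls at 24 h (log2 differences 0.04 and -0.03). Mta1 stood at 2622 and 2711 without 5-Ph-IAA, 2117 and 2253 at 12 h (log2 difference -0.29, limma adjusted p 0.0189) and 2844 and 2651 at 24 h. Mta2 stood at 4019 and 3806, 4527 and 4527 (0.21, 0.0161), and 3808 and 3848. Compared directly, 24 h against 12 h, Chd4 (-0.33), Mbd3 (-0.33) and Mta2 (-0.24) were lower and Mta1 higher (0.33), 4 of the 10 subunits with limma adjusted p between 0.00216 and 0.0114, where 15.9% of all genes were called (7.67% higher, 8.26% lower). Hdac1 and Hdac2 passed in none of the 3 comparisons, and the ratio of Hdac2 to Hdac1 per kb stayed between 0.609 and 0.652. Mta3 and Mbd2 did not pass either. After quantile scaling Hdac1 passed at 12 h (log2 difference -0.14, limma adjusted p 0.0415).

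Of the 5 other core subunits 3 were higher at 12 h, where 6.66% of all genes were higher. Cdk2ap1 rose from 820 and 870 to 1144 and 1126 (log2 difference 0.43, limma adjusted p 0.010), Rbbp7 by 0.23 and Rbbp4 by 0.19. At 24 h Gatad2a was lower (log2 difference -0.18, limma adjusted p 0.0167). From 12 h to 24 h 4 of these 5 subunits fell (Cdk2ap1, Rbbp7, Rbbp4 and Gatad2a, by 0.46, 0.17, 0.17 and 0.16), where 8.26% of all genes were lower. The partner Kdm1a rose by 0.29 at 12 h and fell by 0.36 from 12 h to 24 h. Stem cell markers moved as well, with 1 of 8 higher and 4 lower at 12 h (13.0% of all genes called) and 3 higher and 1 lower from 12 h to 24 h (15.9%). Their summed level was 105880 to 107450 without 5-Ph-IAA, 101810 to 101940 at 12 h and 105250 to 105330 at 24 h. At 24 h against the controls, where 13.7% of all genes were called, 1 of 3 trophoblast markers tested was higher and 1 lower (summed level 534 to 556 against 647 to 664), 1 of 5 neural markers lower (2558 to 2575 against 2338 to 2434) and 1 of 2 fibroblast markers higher (34.6 to 34.6 against 66.5 to 111). Their part in the subunit differences was not tested.

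For both low ATPases of the RAD21 table, 1 library stood apart from its partner. Chd5 stood at 82.8 and 1279 at 12 h, with 74.0 to 112 in the other libraries, and the log2 difference of 1.99 at 12 h (limma adjusted p 0.259) was 0.02 without 12 h library 2 and 3.95 without 12 h library 1 (0.00295). Chd3 stood at 567 and 248 without 5-Ph-IAA, and its difference at 12 h went from -0.28 to 0.31 without 0 h library 1. No direction can be read for either gene here.

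Most RAD21 calls were lost when single libraries were left out. The 12 h call of Mta1 was lost without any 1 of the 4 libraries (limma adjusted p 0.0523 to 0.0960), that of Chd4 without 0 h library 1, 12 h library 1 or 12 h library 2 (0.0851 to 0.106), and that of Mta2 without 0 h library 2, 12 h library 1 or 12 h library 2 (0.0776 to 0.0826). The 24 h call of Chd4 was lost without 0 h library 1, 0 h library 2 or 24 h library 2 (0.0640 to 0.182) and when just the 2 groups were fitted (0.0723), while that of Mbd3 held. Between 24 h and 12 h, the call of Mbd3 was lost without 12 h library 1, 12 h library 2 or 24 h library 2 (0.0528 to 0.0681) and that of Mta1 without 12 h library 1 (0.0589). With a variance that does not depend on the mean, 0 subunits passed in any of the 3.

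**Figure D4:**
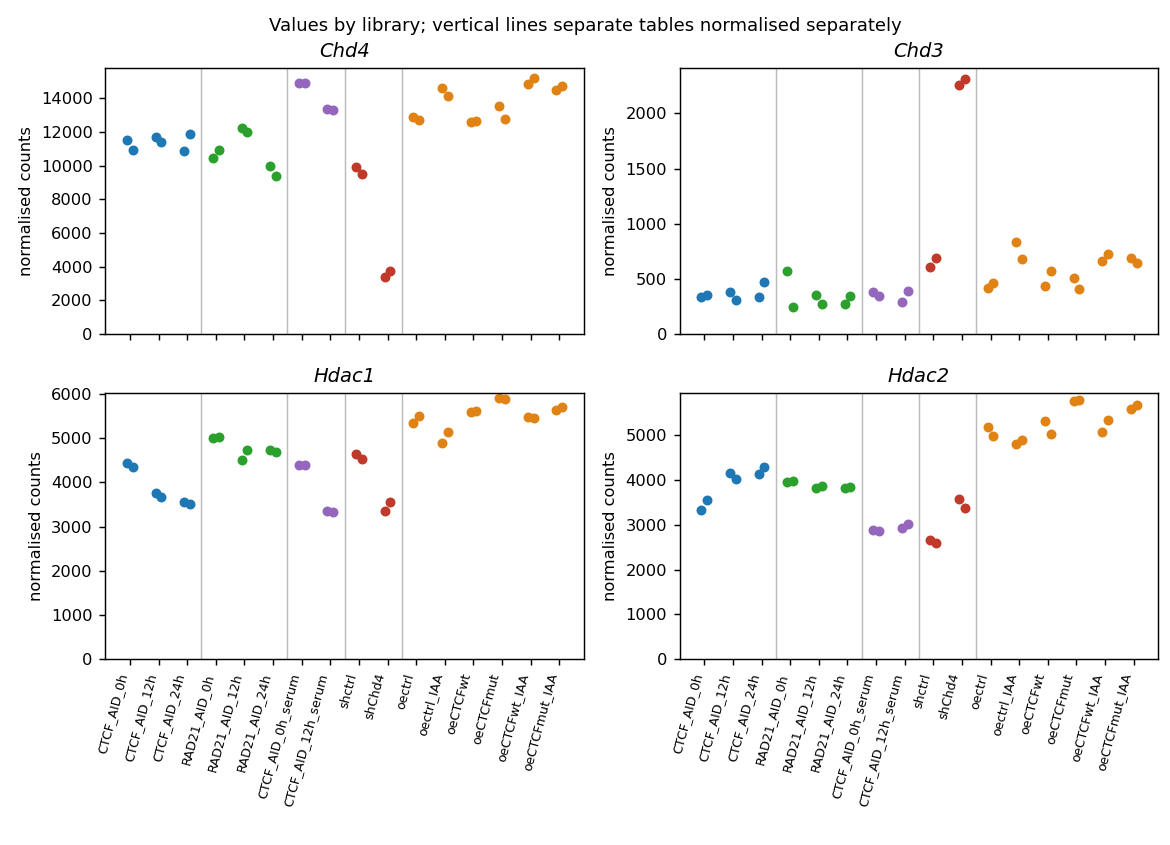
Normalised counts of Chd4, Chd3, Hdac1 and Hdac2 in each of the 32 libraries, 2 points per group, with axes from 0 and vertical lines between tables that were normalised separately. The Chd4 hairpin libraries are the lowest for Chd4, at 3379 and 3729, and the highest for Chd3.

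The overexpression table set IAA against no IAA in cells with a control, wild-type CTCF or mutated CTCF. A time of 12 h is given for the control and mutated CTCF with IAA, and no time was taken for wild-type CTCF with IAA. Both comparisons with added CTCF hold a group whose treatment labels conflict with its titles. The ATPases Chd4 and Chd3 were higher with IAA in all 3 backgrounds, and Mta2 was lower in all 3. With the control, 2 of the 10 subunits were higher and 4 lower, where 25.3% of 13938 genes were called (12.8% higher, 12.5% lower). With wild-type CTCF 3 were higher and 2 lower, where 21.4% were called (11.1% higher, 10.3% lower), and with mutated CTCF 2 and 2, where 16.2% were called (8.31% higher, 7.92% lower). Ctcf transcripts were at 4134 and 4332 in the control and at 9275 to 9712 in the 4 libraries that overexpressed CTCF without IAA.

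Chd4 stood at 12905 and 12684 in the control and at 14582 and 14139 with IAA (log2 difference 0.17, limma adjusted p 0.00222), at 12588 and 12660 against 14854 and 15218 with wild-type CTCF (0.25, 2.66e-04), and at 13546 and 12754 against 14469 and 14729 with mutated CTCF (0.15, 0.00606). Chd3 stood at 420 and 463 in the control and at 830 and 678 with IAA (0.77, 0.00317), at 433 and 570 against 666 and 727 with wild-type CTCF (0.48, 0.0380), and at 509 and 413 against 693 and 642 with mutated CTCF (0.54, 0.0289). With IAA both ATPases lay above the untreated libraries of their own background in each case. Mta2 stood at 3804 and 3992 in the control and at 3452 and 3554 with IAA (-0.15, 0.0121), with a difference of -0.16 (0.0116) under wild-type and -0.22 (0.00272) under mutated CTCF. Chd4 and Chd3 passed in neither comparison of the serum-free table without overexpression at 12 h or 24 h of IAA. In the serum table Chd4 was lower after 12 h of IAA (-0.16, limma adjusted p 0.00105), and Chd3 did not pass (-0.11). A difference between tables was not tested.

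Other subunits passed in some backgrounds only. Mta3 was lower with the control (1302 and 1289 against 1547 and 1647, log2 difference -0.30, limma adjusted p 0.00153) and with mutated CTCF (-0.22, 0.0133), and stood at -0.08 (0.294) with wild-type CTCF. Hdac1 was lower with the control by 0.11 (0.0196) and did not pass with either CTCF (-0.03 and -0.06). Mta1 was lower with the control (-0.12, 0.0424) and with wild-type CTCF (-0.17, 0.0113), and Mbd3 was higher with wild-type CTCF (0.24, 0.0205). Hdac2 and Mbd2 passed in none of the 3. The test of the difference itself, the interaction of IAA with CTCF, called 0 of the 10 subunits for wild-type CTCF with limma, where 1.41% of genes were called, and 0 for mutated CTCF, where 1.64% were called. At an unadjusted p under 0.05 there were 2 (Mta3, 0.22, and Chd5) and 0. Backgrounds were thus not shown to differ for any subunit, and the 95% interval of the Mta3 interaction ran from 0.06 to 0.38 before adjustment.

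Among the listed genes around the complex, the interaction with wild-type CTCF was called for the NuRD partner Kdm1a and the remodellers Chd1l and Atrx (0.34, limma adjusted p 0.00471), all named after their values were seen. Kdm1a stood at 5063 and 5170 in the control and fell to 4242 and 4250 with IAA, while it stood at 4697 and 4810 against 5145 and 5070 with wild-type CTCF (interaction 0.37, limma adjusted p 9.71e-04). Chd1l fell from 672 and 576 to 309 and 341 in the control, and stood at 696 and 671 against 582 and 592 with wild-type CTCF (interaction 0.72, limma adjusted p 0.0157). With mutated CTCF it was called for Kdm1a (0.21, limma adjusted p 0.0350) and Chd1l (0.62, 0.0304). Of all genes 1.41% were called in the wild-type and 1.64% in the mutated interaction. Each interaction holds a group whose treatment labels conflict with its titles.

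Cell type markers moved with IAA in this table as well. Of all genes 25.3%, 21.4% and 16.2% were called with the control, wild-type and mutated CTCF. Of 8 stem cell markers 1 was higher and 4 lower in the control (summed level 124250 to 125530 without and 118460 to 119170 with IAA), 3 and 3 with wild-type CTCF (127590 to 127610 and 122900 to 123410), and 2 and 4 with mutated CTCF (122460 to 122540 and 121140 to 121610). Of 4 neural markers 2 were higher in each background and 1 was lower with wild-type CTCF, with sums of 2263 to 2340 without and 3649 to 3761 with IAA in the control, 2163 to 2200 and 3337 to 3502 with wild-type CTCF, and 2741 to 2830 and 4069 to 4228 with mutated CTCF (Pax6 and Neurog2 not listed). Of 3 mesoderm markers 1 was lower in each background and 1 was higher with wild-type CTCF. Of 4 trophoblast markers 1 was lower in the control and 2 with wild-type CTCF, and of 2 primitive endoderm markers 1 was higher in the control and 1 with mutated CTCF. Their part in the subunit differences was not tested.

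Without IAA, wild-type CTCF gave 0 of 10 subunits called by limma, 2 at an unadjusted p under 0.05 (Mbd2, 0.26, and Mbd3, -0.15), and 0.897% of all genes called. With mutated CTCF, Hdac1 (5905 and 5885 against 5351 and 5495, log2 difference 0.12, limma adjusted p 0.0462) and Hdac2 (5766 and 5790 against 5178 and 4973, 0.19, 0.0175) were higher, 2 of 10, where 5.55% were called (3.31% higher, 2.24% lower). Both labels of the mutated CTCF libraries without IAA disagree with their titles. These Hdac1 and Hdac2 calls were lost without mutated CTCF library 1 or 2 and without control library 2, and that of Hdac1 also without control library 1 (limma adjusted p 0.0761 to 0.197).

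Several small calls in this table were lost when single libraries were left out, while their log2 differences kept the same sign. With the control, Mta1 was lost without any 1 of the 4 libraries (limma adjusted p 0.0605 to 0.199), and Mta2 and Hdac1 without control library 2 or IAA library 1 (0.0798 to 0.148). With wild-type CTCF, Mbd3 was lost without any 1 library (0.0649 to 0.0969), Chd3 without untreated library 1 or either IAA library (0.0839 to 0.237, and 0.29 on the log2 scale without untreated library 1) and when only the 2 groups were fitted (0.0639), Mta1 without untreated library 2 or IAA library 2 (0.0682 and 0.0945) and Mta2 without untreated library 2 or either IAA library (0.0549 to 0.0782). With mutated CTCF, Chd3 was lost without untreated library 2 or either IAA library (0.0855 to 0.192), and Chd4 and Mta3 without untreated library 2 or IAA library 2 (0.0518 to 0.0960). Chd4 held in the control and with wild-type CTCF, and Chd3 in the control. Fitted with just their 2 groups, Mta1, Mta2 and Hdac1 with the control were lost (0.0992, 0.0525 and 0.0976), as were Hdac1 and Hdac2 with mutated CTCF without IAA (0.150 and 0.0702). With a variance that does not depend on the mean, 3, 2 and 2 subunits passed with IAA in the control, wild-type and mutated backgrounds.

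Chd5 again stood apart in single libraries. It was at 371 in control library 2 and at 403 in library 2 of wild-type CTCF with IAA, and at 65.2 to 88.9 in the other 10 libraries. Its differences with IAA of -1.29 (control) and 1.18 (wild-type CTCF) did not pass, and were -0.27 and 0.07 without those libraries. It passed where the other library of that group was left out instead (limma adjusted p 0.0334 without control library 1 and 0.0354 without wild-type CTCF IAA library 1). Across the CTCF, RAD21 and overexpression tables Chd5 lay between 65.2 and 112 in 21 libraries and between 371 and 1279 in the other 3.

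Set side by side, Hdac1 was the only subunit called in every comparison of IAA with no IAA in cells without overexpressed CTCF. It was lower in each, also at 24 h in serum-free CTCF AID cells (log2 difference -0.32). With a variance that does not depend on the mean, only this 24 h call held. The Hdac1 calls at 12 h in serum-free cells and in the overexpression control were also lost without some single libraries. The pattern was picked out after the values were seen, and the share of all genes called in each of these comparisons was not counted. The 12 h and 24 h serum-free comparisons share their controls. With wild-type or mutated CTCF added, Hdac1 did not pass (-0.03 and -0.06), so no subunit passed in every comparison with IAA. Hdac1 was lower after 12 h of IAA in serum-free CTCF AID cells, in the serum condition and in the overexpression control (log2 differences -0.25, -0.39 and -0.11), and stood at -0.12 after 12 h of RAD21 loss (limma adjusted p 0.0666, and 0.0415 after quantile scaling). Hdac2 was higher in the first (0.25) and stood at 0.05, -0.06 and -0.05 in the others. Chd4 was lower in the serum condition (-0.16) and higher in the overexpression control (0.17), and did not pass in serum-free CTCF AID cells (0.04 at 12 h). The lower Hdac1 and higher Hdac2 of the serum-free table had the same signs as with the Chd4 hairpin (-0.41 and 0.40), in tables with separate controls. Hdac2 was not called in the serum condition or the overexpression control. With the hairpin 67.4% of all genes were called, and 40.02% of the 31-base words of Hdac1 also occur in other genes. A link between CTCF loss and the hairpin was not tested.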

How the data were processed

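The labels describe polyadenylated RNA from 32 libraries in 16 groups of 2. The submitters' processing notes name Trim Galore, Bowtie2, STAR, RSEM, DESeq2 and mm10, without versions, roles or order. The 5 tables deposited by the authors hold normalised counts per gene and library, treated as a signal that is never negative. In low values (under 60) the best step made 11.1% to 46.7% whole within 0.02, so reads were not recovered and the depth behind each value is unknown. Library totals of the deposited values were 15364584 to 19642332. Each table was normalised separately, so tests were made within a table only. 1 incomplete line of the CTCF table was left out.

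Tests used limma 3.58.1 (R 4.3.3) on log2(value + 1) of every gene whose table mean reached 10 (all groups of the table in 1 fit, moderated variance with a trend on the mean) and Benjamini-Hochberg adjustment over all genes tested, called at 0.05. The code was tested on simulated data. Groups followed the sample titles. Alternatives were a pseudocount of 0.5, mean filters of 1 and 100, upper-quartile and quantile scaling, no mean trend, a replicate block, only the groups compared, a minimum log2 difference of 0.5, the treatment labels as groups (for 1 comparison), and leaving out each library. Exonic lengths and positions are from GENCODE M21 on GRCm38, shared 31-base words from its transcripts, and promoters from RefSeq on GRCm38.p6.

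The 10 subunits and the other lists were chosen with earlier results of these data known. Named were all 10 subunits, the 5 other core subunits, the targeted genes, and of each other list at most the 2 largest rises and falls called per comparison. Gm4864 was added because it shares sequence with Hdac1, and 3 genes with a called interaction and the marker genes were chosen after their values were seen.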

Additional observations from a re-analysis of the deposited data

Results flagged for a closer look

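For 4 comparisons of the same time point, every library treated for CTCF loss lay on one side of its controls and every library treated for RAD21 loss on the other. At 12 h the log2 difference of Mta1 was 0.073 after CTCF loss and -0.29 after RAD21 loss, and that of Mta2 was -0.12 and 0.21. For Hdac2 it was 0.25 and -0.05 at 12 h, and 0.29 and -0.05 at 24 h. Mta1 and Mta2 did not pass the test after CTCF loss, nor Hdac2 after RAD21 loss. With 2 libraries a group, such separation can arise without a real difference, and its share over all genes was not counted. The cell lines, the auxins and the tables differ between the 2 degrons, and the difference between them was not tested.

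The same held for 2 subunits between the CTCF AID cells of the serum-free table and those labelled serum. After 12 h of IAA the log2 difference of Mbd2 was -0.10 in the first and 0.45 in the second, and that of Mta1 was 0.073 and -0.071. Only the Mbd2 difference in serum passed the test against its own controls, and the difference between the tables was not tested. The share of all genes with this pattern was not counted either.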

How the results depend on the processing

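Over 15 comparisons, 42 of the 150 subunit values were called, and none of the alternatives reversed one. All 42 were kept with a pseudocount of 0.5 and with mean filters of 1 and 100, 41 with upper-quartile and 41 with quantile scaling, and 15 without the mean trend. The largest shift of the median of all genes by scaling was 0.081, for the hairpin with the upper quartile. Without the mean trend the subunits called numbered 0 after 12 h and 1 after 24 h of CTCF loss, 0 in each of the 3 RAD21 comparisons, 0 in serum, 3, 2 and 2 with IAA in the control, wild-type and mutated CTCF backgrounds, and 0 for mutated CTCF without IAA. With a minimum log2 difference of 0.5 they numbered 4 for the hairpin, 1 for IAA in the control, 1 in the mutated CTCF background, and 0 in the other comparisons. Fits restricted to the 2 groups at hand gave 1 for RAD21 loss at 24 h, 3 for IAA in the control and 0 for mutated CTCF without IAA, and the last gave 1 with upper-quartile and 1 with quantile scaling. The cause was not tested.

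When single libraries were left out, the subunits called ranged from 7 to 8 for the hairpin, 0 to 2 and 2 to 3 for CTCF loss at 12 and 24 h (0 to 0 between them), 0 to 1 and 1 to 2 for RAD21 loss (3 to 4 between them), 2 to 4 in serum, 3 to 6, 1 to 3 and 1 to 4 with IAA in the control, wild-type and mutated backgrounds, 0 to 0 and 0 to 1 for wild-type and mutated CTCF without IAA, and 0 to 0 for both interactions. Where this leaves 1 library in a group, it is assumed to vary like the other groups. Groups by the treatment label were run only for wild-type CTCF against the control without IAA, where 0 of 10 subunits were called, as with the titles. They were not run for the comparisons with IAA.

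Samples with the same replicate number shared only a number: their deviations correlated at -0.063 to 0.10. With the replicate block 40 of the 42 values were kept, and RAD21 loss at 24 h had 1 subunit called (Chd4 was lost, adjusted p 0.0661, as was Mta1 with IAA in the control, 0.0504), while Mbd2 with the hairpin gained a call (0.0188). Depth is unknown, so its limit on low genes such as Chd5 could not be computed.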
